A study of Mus musculus with 12 samples.

Results

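Inhibitory receptors of myeloid cells and the enzymes that act below them were followed in mouse osteoclast precursors given dexamethasone, a synthetic glucocorticoid. The set was chosen by gene symbol as 8 genes of the 28293 in the count table. It holds 4 receptors (Lilrb4a, Cd300lf, Cd300a and Cd33), the Src family kinase gene Lyn, the phosphatase genes Ptpn6 and Ptpn11, and the lipid phosphatase gene Inpp5d. All 8 passed the filter on low counts. The cells were wild-type and came from femur and tibia marrow of male C57BL/6J mice aged 6 months. They had 3 days in the growth factor M-CSF (10 ng/ml) before RANKL, the cytokine that drives osteoclast formation, was added. The control group (RANKL, n = 6) had 25 ng/ml RANKL and M-CSF, and the other group (RANKL+Dex, n = 6) also had 10 nM dexamethasone (1e-08 M), for 24 h. It is not clear from the labels whether a first 24 h of RANKL came before the 24 h of dexamethasone. Both groups held batches 1 to 6.

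Receptors of this kind carry immunoreceptor tyrosine-based inhibitory motifs (ITIMs) in their cytoplasmic tails. Src family kinases such as LYN phosphorylate the motifs, and the phosphorylated motifs bind the protein phosphatases SHP-1 and SHP-2 or the inositol phosphatase SHIP1. In osteoclast precursors these brakes oppose the costimulatory receptors that signal through the ITAM adaptors DAP12 and FcRγ, and mice without SHP-1 or SHIP1 have overactive osteoclasts. CD300 receptors come in inhibitory and activating versions that lie side by side in the genome.

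Of the 8 genes, Lilrb4a and Cd300a were lower with dexamethasone in edgeR (quasi-likelihood, threshold 0.05 on the adjusted p), and none was higher. Over all 13775 tested genes 7.55% were lower, 7.98% were higher and 15.5% changed either way. With batch as a block Lyn was also called, as higher, where 21.8% of tested genes changed either way. The phosphatase genes Ptpn6 and Inpp5d differed by less than 1% between group means, and Lyn was 8.33% higher without passing the threshold. The median log2 fold change of the 8 genes was −0.11, beside −0.00 over all tested genes. In bulk RNA, fewer cells of a type and less RNA per cell cannot be told apart. Levels are library-scaled counts (CPM with TMM factors), and changes are RANKL+Dex over RANKL on the log2 scale, ± SE.

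Upstream sequences of both CD300 members and of 2 activating neighbours are shown because the neighbours fell with Cd300a. They are RefSeq sequences on the GRCm38.p6 build, from 250 bases before to 50 bases after the first listed start, in the direction of the gene. The windows are chr11:114889791-114890090 (+) for Cd300a, chr11:115133943-115134242 (−) for Cd300lf, chr11:114934322-114934621 (−) for Cd300lb and chr11:114989837-114990136 (−) for Cd300ld. Capitals mark AGGAAG, a core of the kind bound by PU.1 and other ETS factors, and AGAACA, a hexamer of the glucocorticoid receptor site, on either strand (CTTCCT and TGTTCT in the reverse direction).
Cd300a: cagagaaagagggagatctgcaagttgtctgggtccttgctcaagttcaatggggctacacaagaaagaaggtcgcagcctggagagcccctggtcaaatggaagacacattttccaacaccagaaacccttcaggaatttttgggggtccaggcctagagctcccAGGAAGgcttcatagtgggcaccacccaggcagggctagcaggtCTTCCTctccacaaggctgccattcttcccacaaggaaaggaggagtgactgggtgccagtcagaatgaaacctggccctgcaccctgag
Cd300lf: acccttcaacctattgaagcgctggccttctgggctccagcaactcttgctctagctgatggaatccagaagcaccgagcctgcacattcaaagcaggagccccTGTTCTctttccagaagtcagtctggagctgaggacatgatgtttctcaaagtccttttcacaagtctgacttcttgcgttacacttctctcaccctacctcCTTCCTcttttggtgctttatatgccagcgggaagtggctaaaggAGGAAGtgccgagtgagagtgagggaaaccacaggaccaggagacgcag
Cd300lb: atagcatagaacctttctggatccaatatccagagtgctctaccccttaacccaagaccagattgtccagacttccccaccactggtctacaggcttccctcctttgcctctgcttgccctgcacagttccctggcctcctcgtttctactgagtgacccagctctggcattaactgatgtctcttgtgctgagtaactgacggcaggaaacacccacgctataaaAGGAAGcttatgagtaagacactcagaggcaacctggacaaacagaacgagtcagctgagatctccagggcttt
Cd300ld: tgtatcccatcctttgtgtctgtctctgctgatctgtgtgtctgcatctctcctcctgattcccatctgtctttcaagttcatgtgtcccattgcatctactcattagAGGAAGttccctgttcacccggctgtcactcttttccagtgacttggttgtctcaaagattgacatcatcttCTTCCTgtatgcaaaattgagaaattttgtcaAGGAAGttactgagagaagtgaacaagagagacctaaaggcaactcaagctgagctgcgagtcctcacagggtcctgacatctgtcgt

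AGGAAG was found at least once in 5 of the 6 members with a RefSeq window, and in 35.1% of all 27025 windows of that length. It stood 2 times in the window of Cd300a, 2 times in Cd300lf, 3 times in Cd33, 2 times in Inpp5d and 1 time in Ptpn6. The neighbour Cd300ld had 3 matches, and Cd300lb and Cd300c2 had 1 each. AGAACA was found in Cd300lf and Ptpn6, 1 time each, and in 19% of all windows. It was not found in the windows of Cd300a, Cd300lb, Cd300ld or Cd300c2. The motifs share no position with each other in these windows. A match describes letters only, and a window without one says nothing of the factor elsewhere. Lilrb4a and Lyn had no window in the RefSeq table.

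**Figure D1:**
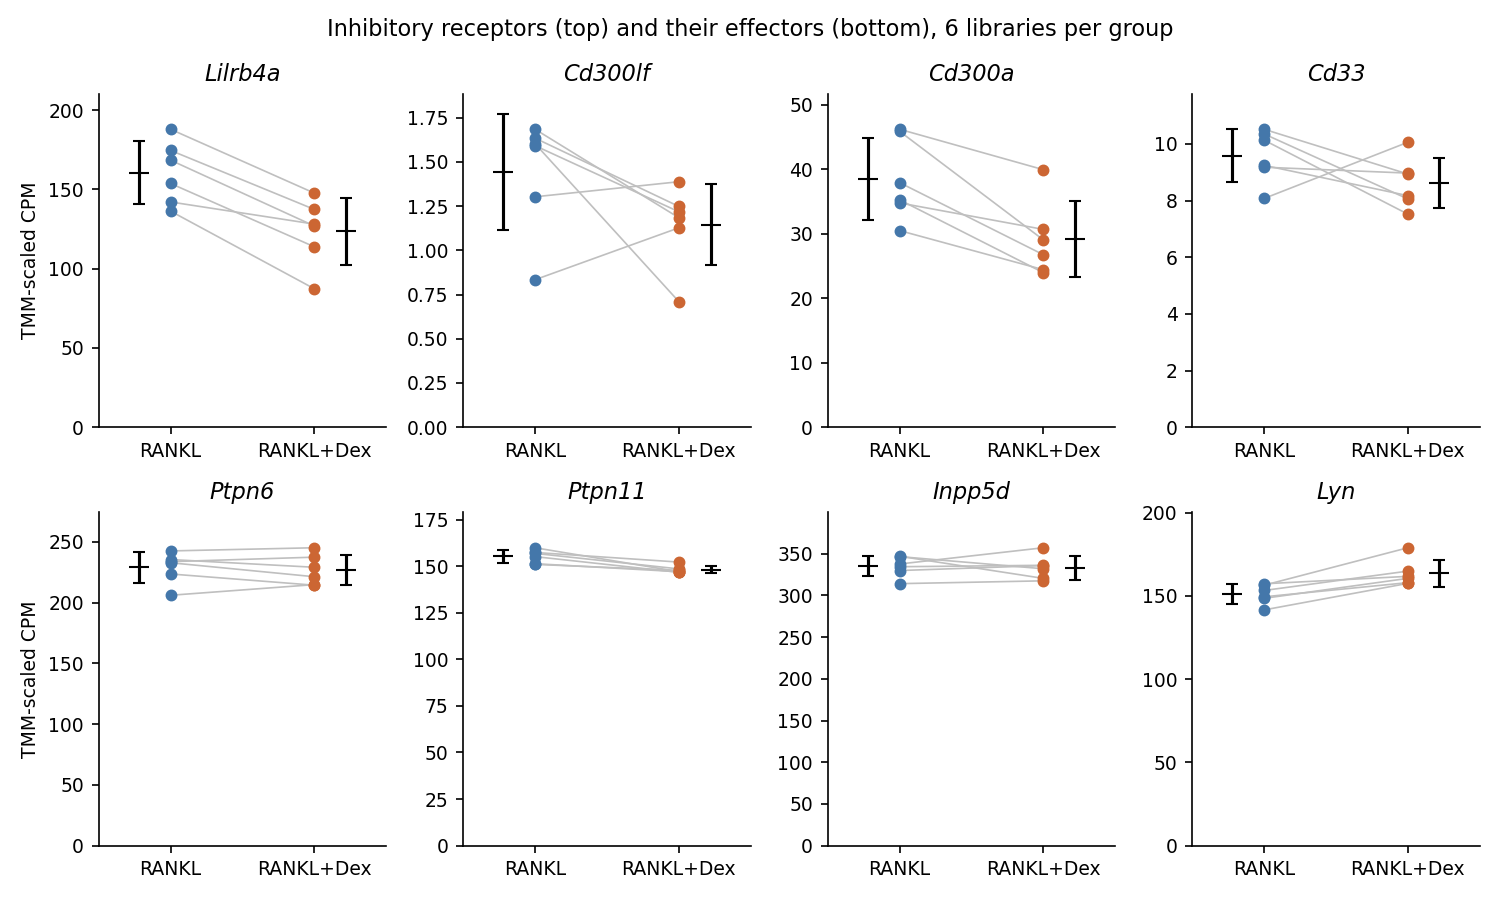
TMM-scaled CPM of the 8 genes in each library (points, 6 per group), with the receptors in the upper row and the effectors in the lower row. Lyn ran from 142 to 157 CPM without dexamethasone and from 158 to 179 with it, while the groups overlapped for the other 7 genes.

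Lilrb4a (ENSMUSG00000112148, GRCm39 chr10:51367052-51372707, + strand) encodes an inhibitory immunoglobulin-like receptor of myeloid and mast cells. Its level ran from 136 CPM through a median of 161 to 188 in RANKL, and from 87.3 through 127 to 148 in RANKL+Dex. The groups overlapped, with 4 of the 6 dexamethasone libraries under the lowest control and the lowest value of all in batch 5. Lilrb4a fell by 0.38 on the log2 scale (SE 0.10, a change of −23.0%, n = 6, edgeR adjusted p = 0.0192), and it was lower in 6 of 6 batches. Within batches the difference ran from −0.64 to −0.15. With batch as a block the adjusted p was 1.4e-05. In the fit without the block, the call was lost when RANKL replicate 6 was left out (edgeR adjusted p = 0.0508).

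The close relative Lilr4b shares sequence with Lilrb4a, which makes the count of each uncertain. Of the 31-base words in the Lilrb4a transcripts, 39.1% were also in those of Lilr4b and 55.7% in those of any other gene. The handling of reads with several matches is not stated in the labels. Lilr4b measured 305 ± 34.5 CPM in RANKL and 259 ± 40.3 in RANKL+Dex (SD, n = 6, −0.23 ± 0.10, edgeR adjusted p = 0.11). It was lower in 6 of 6 batches, with an edgeR adjusted p of 1.6e-04 under the batch block. The 2 genes summed gave −0.28 with an edgeR adjusted p of 0.0525, which misses the threshold.

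Cd300a (ENSMUSG00000034652, GRCm39 chr11:114780867-114795480, + strand) encodes an ITIM receptor for phosphatidylserine and phosphatidylethanolamine on dying cells. Its level ran from 30.5 CPM through a median of 36.6 to 46.2 in RANKL, and from 23.9 through 27.9 to 39.9 in RANKL+Dex. The groups overlapped, since the dexamethasone library of batch 2 lay above 4 of the 6 controls. Within its own batch that library was still below its control, and all 6 batches had the lower value with dexamethasone. Cd300a fell by 0.39 (SE 0.12, a change of −23.8%, n = 6, edgeR adjusted p = 0.0368). The adjusted p was 1.1e-04 with batch as a block. In the fit without the block, the call was lost when any of 8 single libraries was left out. These were RANKL replicates 1, 2 and 3 and RANKL+Dex replicates 1, 3, 4, 5 and 6 (edgeR adjusted p up to 0.0880). No library was left out under the block.

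Cd300lf (ENSMUSG00000047798, GRCm39 chr11:115007040-115024818, − strand) encodes an ITIM receptor described in mouse as a brake on osteoclast formation. It was scarce, with 12 to 41 counts per library. Levels ran from 0.834 CPM through 1.60 to 1.69 in RANKL and from 0.710 through 1.20 to 1.39 in RANKL+Dex. Most control libraries lay above most dexamethasone libraries, but the groups overlapped and 2 of 6 batches went the other way. The change was −0.32 ± 0.21 (95% interval −0.75 to 0.12, n = 6, edgeR adjusted p = 0.334). At this depth a fall of the size seen for Cd300a lies inside that interval.

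Cd33 (ENSMUSG00000004609, GRCm39 chr7:43173640-43193852, − strand) encodes a receptor of the Siglec family, which bind sialic acids. Levels ran from 8.07 CPM through 9.69 to 10.5 in RANKL and from 7.52 through 8.56 to 10.1 in RANKL+Dex. The groups overlapped, and the dexamethasone library of batch 6 was above its own control while the other 5 were below theirs. The change was −0.16 ± 0.09 (95% interval −0.34 to 0.03, n = 6, edgeR adjusted p = 0.268).

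Lyn (ENSMUSG00000042228, GRCm39 chr4:3678115-3813122, + strand) encodes the kinase that phosphorylates ITIMs. It was the 1 member whose groups did not overlap, where 3.84% of tested genes had every dexamethasone library above every control. Its level ran from 142 CPM through 151 to 157 in RANKL and from 158 through 161 to 179 in RANKL+Dex, with the highest value in batch 2. The gap between the groups was narrow, from 157.2 to 157.5 CPM. The change was 0.12 ± 0.04 (95% interval 0.03 to 0.20, n = 6, higher in 6 of 6 batches), with an edgeR adjusted p of 0.0556. With batch as a block the adjusted p was 0.0219, and the DESeq2 Wald test gave 0.0258. Without the block, leaving out RANKL replicate 1 or RANKL+Dex replicate 1 or 5 also gave the call (edgeR adjusted p = 0.0488, 0.0494 and 0.0498). The pseudogene Gm11787 shares 17.1% of the 31-base words of the Lyn transcripts.

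Ptpn6 (ENSMUSG00000004266, GRCm39 chr6:124697670-124715677, − strand) encodes SHP-1. Levels ran from 206 CPM through 233 to 242 in RANKL and from 214 through 225 to 245 in RANKL+Dex. The groups lay on top of each other, with 3 batches lower and 3 higher. The change was −0.01 ± 0.04 (95% interval −0.11 to 0.08, n = 6, edgeR adjusted p = 0.899), and its sign turned in some settings.

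Ptpn11 (ENSMUSG00000043733, GRCm39 chr5:121268596-121329460, − strand) encodes SHP-2, which can bind ITIMs and also carries growth factor signals to RAS. Levels ran from 151 CPM through 156 to 160 in RANKL and from 147 through 147 to 152 in RANKL+Dex. Of the dexamethasone libraries, 5 lay below every control, and the library of batch 2 overlapped with them. The change was −0.07 ± 0.03 (n = 6, lower in 6 of 6 batches), with an edgeR adjusted p of 0.149.

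Inpp5d (ENSMUSG00000026288, GRCm39 chr1:87548034-87648229, + strand) encodes SHIP1, which removes the 5-phosphate from the PI3 kinase product. Levels ran from 314 CPM through 336 to 347 in RANKL and from 317 through 334 to 357 in RANKL+Dex. The groups overlapped over nearly their whole range, and 2 of 6 batches were lower. The change was −0.01 ± 0.04 (95% interval −0.08 to 0.07, n = 6, edgeR adjusted p = 0.926), and its sign also turned in some settings. For Ptpn6 and Inpp5d these intervals leave out falls of the size measured for Lilrb4a and Cd300a.

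**Figure D2:**
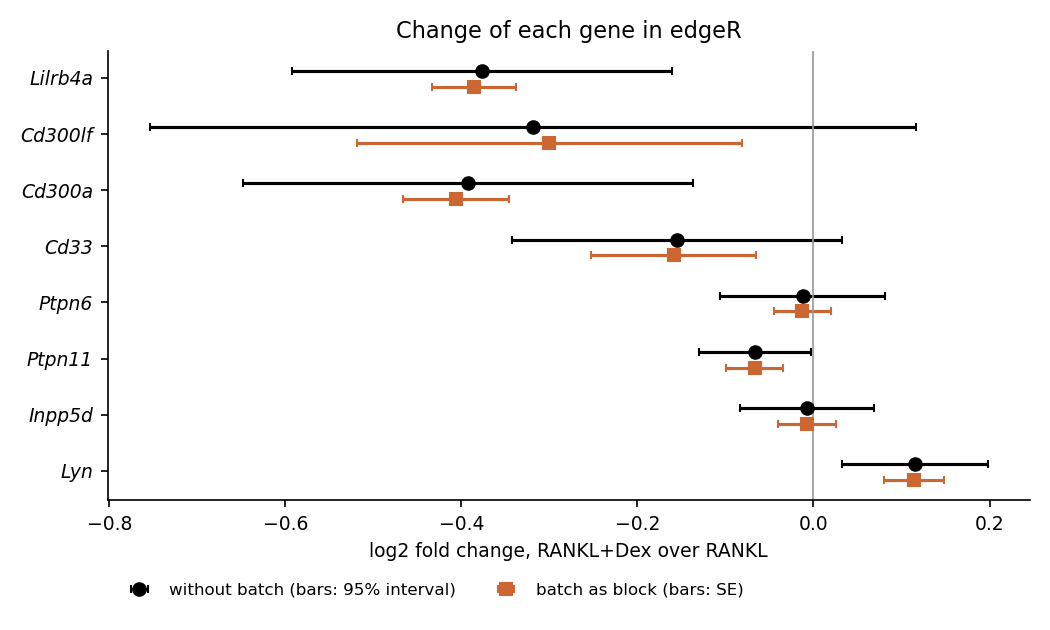
Log2 fold change of each gene, RANKL+Dex over RANKL, from edgeR without batch (circles, bars are 95% intervals) and with batch as a block (squares, bars are SE). Lilrb4a and Cd300a lie at −0.38 and −0.39, Lyn lies at 0.12, and Ptpn6 and Inpp5d lie at −0.01.

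Levels of different genes were compared per kilobase of exon. Ptpn6 stood first in RANKL at 81.7 ± 4.56 CPM per kb, followed by Inpp5d at 44.0 ± 1.61 and Lyn at 37.1 ± 1.43 (SD, n = 6). Lilrb4a followed at 30.7 ± 3.81, Ptpn11 at 20.7 ± 0.471 and Cd300a at 8.11 ± 1.34 CPM per kb. Cd33 and Cd300lf closed the order at 1.23 ± 0.120 and 0.280 ± 0.0635 CPM per kb. Of neighbours in this order, Lyn and Lilrb4a overlapped in RANKL. In RANKL+Dex the order was the same, and the overlaps were those of Inpp5d with Lyn and of Lilrb4a with Ptpn11.

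The CD300 genes lie in a stretch of 244 kb on chromosome 11 (GRCm39 chr11:114780867-115024818), with Cd300a and Cd300lf at its ends. Of 11 CD300 genes there, 5 had enough counts to be tested and 4 of these were lower with dexamethasone. Over all tested genes 7.55% were lower. Of the 4, Cd300a lost its call in 12 of 25 alternative runs. Cd300ld, an activating receptor gene, fell 2.96-fold, with 31.6 ± 8.08 CPM in controls and 10.6 ± 1.42 with dexamethasone (SD, n = 6, change −1.57 ± 0.15, edgeR adjusted p = 1.6e-06). Its groups did not overlap, where 3.17% of tested genes had every dexamethasone library below every control. Cd300c2 measured 38.9 ± 8.08 CPM in controls and 22.5 ± 4.94 with dexamethasone, a fall of −0.78 ± 0.14 (edgeR adjusted p = 0.00128). Cd300lb, whose receptor signals through DAP12, went down from 75.7 ± 12.5 CPM to 47.2 ± 9.73 (change −0.67 ± 0.13, edgeR adjusted p = 0.00166). The groups of these 2 genes overlapped, and each was lower in 6 of 6 batches. The 6 untested CD300 genes had 34 counts or fewer over the 6 RANKL libraries together. Cd300lg, at another locus, went down from 0.849 CPM to 0.395 (change −1.11 ± 0.31, edgeR adjusted p = 0.0213). Shared 31-base words were 7.51% for Cd300a, 4.33% for Cd300lf, 6.56% for Cd300ld and 12.3% for Cd300c2. Cd300a and Cd300c2 shared most with each other (2.71% and 10.1% of their words), as did Cd300lf and Cd300ld (2.56% and 5.11%).

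**Figure D3:**
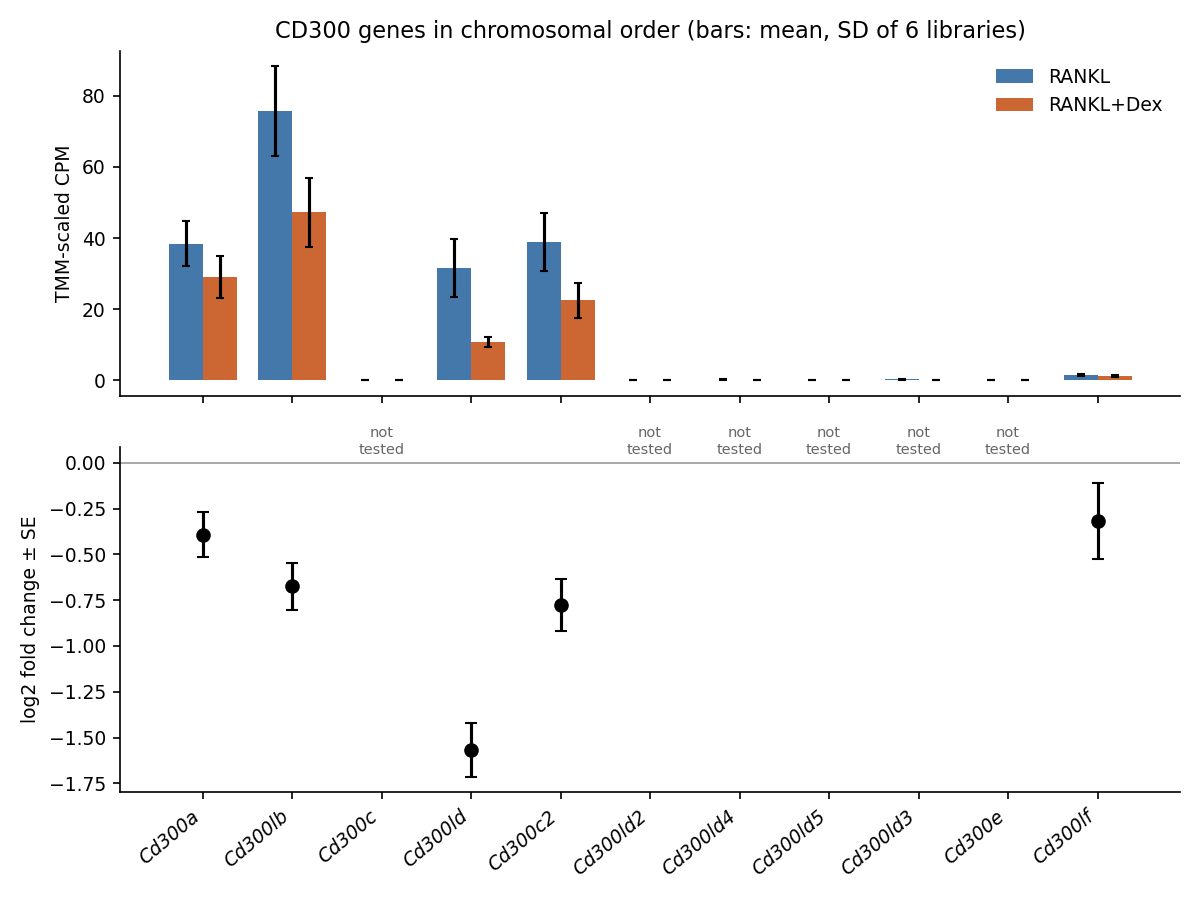
CD300 genes in chromosomal order, with mean TMM-scaled CPM per group (upper panel, bars are SD of 6 libraries) and the log2 fold change ± SE of tested genes (lower panel). Cd300lb, Cd300ld and Cd300c2 lie at −0.67, −1.57 and −0.78, further below 0 than Cd300a at −0.39.

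Ratios of 2 genes within a library do not depend on library scaling, and 4 are given here with exact two-sided permutation tests and Benjamini-Hochberg adjustment over the 5 that were computed. The log2 count ratio of Cd300a to Cd300lb went from −0.98 ± 0.11 in RANKL to −0.69 ± 0.16 in RANKL+Dex (SD, n = 6, difference 0.28 ± 0.08, exact permutation p = 0.00866, adjusted p = 0.0144). That of Cd300lf to Cd300ld went from −4.43 ± 0.55 to −3.20 ± 0.46 (difference 1.22 ± 0.29, exact permutation p = 0.00433, adjusted p = 0.0108). In both ratios the activating gene was lower relative to the inhibitory one with dexamethasone, in 6 of 6 batches. The falls of Cd300lb and Cd300ld given above enter these ratios, so the ratios are not separate from them. Cd300lf had only 12 to 41 counts per library. Inpp5d to Inppl1, the gene of SHIP2, went from 1.00 ± 0.07 to 1.11 ± 0.08 (difference 0.11 ± 0.04, exact permutation p = 0.0260, adjusted p = 0.0325). That ratio missed the threshold when any of RANKL replicates 1, 2, 3 and 6 or RANKL+Dex replicates 4, 5 and 6 was left out (exact permutation adjusted p up to 0.0676). Ptpn6 to Ptpn11 went from 0.56 ± 0.06 to 0.61 ± 0.07 (difference 0.05 ± 0.04, exact permutation p = 0.182, adjusted p = 0.182).

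**Figure D4:**
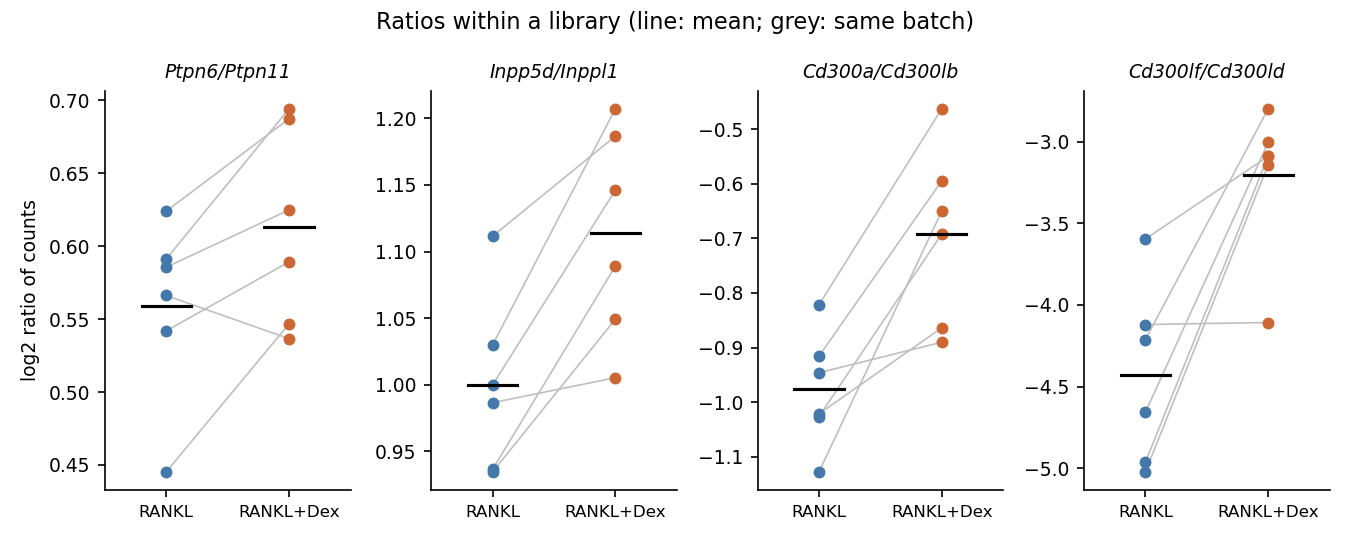
Log2 ratio of counts of 2 genes in each library for 4 ratios (points, 6 per group, horizontal line is the mean, grey lines join libraries of a batch). Cd300a to Cd300lb and Cd300lf to Cd300ld are higher with dexamethasone in 6 of 6 batches, and Ptpn6 to Ptpn11 in 5 of 6.

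Genes listed as inhibitory receptors beside the members moved in both directions. Of 24 tested, 2 rose and 7 fell (median log2 fold change −0.13), or 4 and 12 with batch as a block. Over all tested genes 7.98% were higher and 7.55% lower, or 10.6% and 11.1% with the block. These shares also stand beside the counts of the lists below. The list holds Lilr4b, which shares 36.7% of its 31-base words with Lilrb4a. Whether each listed gene carries an ITIM was not checked. Of the 7 that fell, Pecam1, Clec4a4, Cd22 and Slamf8 were scarce, at 1.29, 1.31, 1.92 and 2.82 CPM in RANKL. Cd22 is also on the B cell marker list below. Pilra, an ITIM receptor gene, went down from 14.5 ± 1.98 CPM to 6.19 ± 1.32 (SD, n = 6, change −1.23 ± 0.13, edgeR adjusted p = 5.9e-06), and Ceacam1 fell from 22.02 ± 0.891 to 17.5 ± 0.818 CPM. Havcr2, which encodes TIM-3, went up from 29.6 ± 5.67 CPM to 44.3 ± 5.92 (change 0.58 ± 0.11, edgeR adjusted p = 0.00158), and Cd72 rose from 14.1 ± 2.38 to 18.7 ± 3.17 CPM. Abundant members chosen after their values were seen were Sirpa, the receptor for CD47, at 1019 and 953 CPM (edgeR adjusted p = 0.126, or 0.0422 with the block), and Pirb at 258 and 252 CPM (edgeR adjusted p = 0.858). Also abundant were Vsir at 425 and 405 CPM, Clec12a at 281 and 304 and Clec4a2 at 225 and 250. None of these was called (edgeR adjusted p = 0.160, 0.0957 and 0.058). With the block Clec12a and Clec4a2 passed as higher (edgeR adjusted p = 0.0204 and 0.0370), and Vsir did not pass.

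Of 19 tested activating receptors and adaptors 1 rose and 9 fell, with a median of −0.55. The 9 include Pilrb1 and Pilrb2, which share 42.8% of their 31-base words with each other, so their counts are not separate. They were scarce, at 2.01 and 2.12 CPM in RANKL, as was Cd300lg at 0.849 CPM. Siglec15, a DAP12-coupled receptor gene of osteoclasts, fell by 0.39, and Sirpb1c went down from 11.1 ± 3.08 CPM to 7.36 ± 1.40 (SD, n = 6, edgeR adjusted p = 0.0264). Oscar, an FcRγ-coupled costimulatory receptor gene of osteoclasts, went up from 199.6 ± 11.4 CPM to 229.6 ± 16.6 (change 0.20 ± 0.05, edgeR adjusted p = 0.0105). Hcst, the gene of the adaptor DAP10, measured 5.54 and 6.46 CPM (edgeR adjusted p = 0.252). The adaptor genes Tyrobp (DAP12) and Fcer1g (FcRγ), chosen after their values were seen, differed between groups by 0.02 ± 0.07 (edgeR adjusted p = 0.912) and −0.07 ± 0.05 (0.432).

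Of 15 Src family kinases and regulators 3 rose and 6 fell (median −0.11). Fgr, a myeloid Src family kinase gene, went down from 38.6 ± 5.85 CPM to 21.4 ± 3.72 (SD, n = 6, change −0.84 ± 0.11, edgeR adjusted p = 7.4e-05). The estimate for Lyn lay above 0. Cblb, a ubiquitin ligase gene, rose by 0.26 ± 0.04. Of 20 tyrosine phosphatases 2 rose and 6 fell (median −0.10). Ptpre fell from 283.5 ± 25.3 to 202.9 ± 18.0 CPM and Ptpn7 from 62.2 ± 5.48 to 48.7 ± 4.85 CPM, while Ptpra rose by 0.15 ± 0.04 and Ptpn12 by 0.11 ± 0.03.

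Phosphoinositide genes had 2 rises and 2 falls among 24 tested (median −0.01). Pik3r1, the p85α regulatory subunit gene of PI3 kinase, went up from 172 ± 4.58 CPM to 248 ± 9.39 (SD, n = 6, change 0.53 ± 0.03, edgeR adjusted p = 1.8e-08). Among catalytic subunit genes Pik3ca rose by 0.14 ± 0.04 (edgeR adjusted p = 0.04445), while Pik3cg and Pik3cd fell by 0.27 and 0.14. The call was lost in 13 of 25 alternative runs for Pik3ca and in 12 of 25 for Pik3cd. Inppl1 measured 168 ± 12.9 and 154 ± 13.4 CPM (edgeR adjusted p = 0.193, or 0.0331 with batch as a block). Of 21 adaptors of SHP and SHIP none rose and 5 fell, among them Pstpip2 (−0.25 ± 0.04) and Arhgap45 (−0.23 ± 0.05). Dok3 and Gab2 differed by 0.12 ± 0.04 (edgeR adjusted p = 0.0789) and 0.11 ± 0.04 (0.0797), and with batch as a block both passed (0.0174 and 0.0458). Under that block 3 adaptor genes rose and 5 fell, and among phosphoinositide genes 3 rose and 4 fell. Of 15 ligands 2 rose and 5 fell (median −0.19), or 2 and 8 with the block. Whether each listed ligand binds a receptor of these lists was not checked. Apoe, which encodes a ligand of human LILRB4, rose from 167 ± 20.2 to 345 ± 101 CPM (1.05 ± 0.15), and Pvr rose by 0.27 ± 0.05. Cd274, which encodes PD-L1, fell from 27.7 ± 3.23 to 19.1 ± 2.22 CPM, and Cd24a fell from 7.10 ± 1.46 to 3.76 ± 0.946 CPM.

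Over all 7 lists 11 of 132 tested genes rose and 38 fell, with a median of −0.10 beside −0.00 over all tested genes. In the same fit 7.98% of all tested genes were higher and 7.55% lower. With batch as a block 18 rose and 55 fell, where 10.6% of all tested genes were higher and 11.1% lower.

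**Figure D5:**
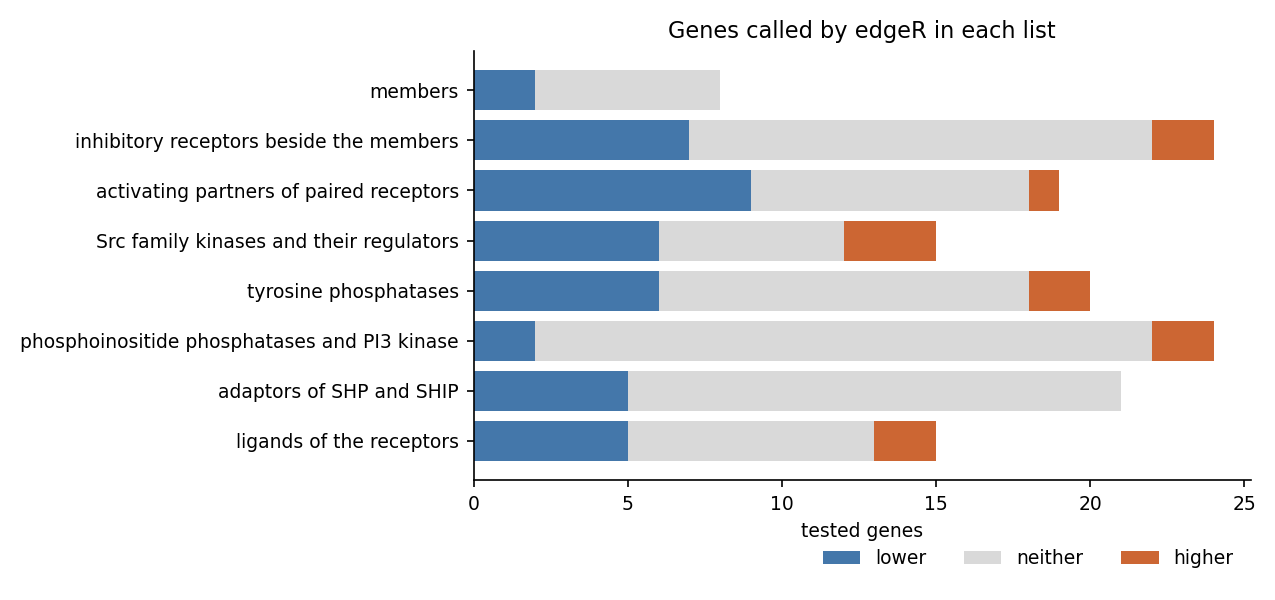
Number of tested genes called lower, higher or neither by edgeR (adjusted p under 0.05) in each list of related genes. Activating partners have 9 of 19 lower, inhibitory receptors beside the members 7 of 24, and phosphoinositide genes 2 of 24. Over all tested genes 7.55% were lower and 7.98% higher.

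By the mean absolute difference of log2 CPM over the 12 libraries, each gene centred on its own RANKL mean, Lair1 (0.0891) and Map3k1 (0.0949) were most like Lilrb4a among 9830 genes, whose median was 0.282. Prdx1 (0.0843) and Gcnt1 (0.0845) were most like Cd300a, with a median of 0.322. For Cd33 they were Cdk19 (0.0676) and Fchsd2 (0.0764), and for Cd300lf Epm2a (0.178) and Nbdy (0.181). Values for Cd300lf carry its low counts.

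Libraries held 16820193 to 28523595 counts. All 12 osteoclast precursor markers and all 10 monocyte and macrophage markers were detected in every library, at 5.07% to 5.34% and 0.580% to 0.861% of counts in RANKL and 5.15% to 5.51% and 0.561% to 0.864% in RANKL+Dex. The osteoclast precursor share was higher in 6 of 6 batches (exact permutation p = 0.0281, adjusted p = 0.0507). Of its 12 markers 5 rose in edgeR (Acp5, Ctsk, Nfatc1, Calcr and Oscar), Itgb3 fell and 6 did neither, and Calcr went up from 97.4 CPM to 272. Mmp9 gave 42.6% of the osteoclast precursor marker counts and Lyz2 46.0% of the monocyte and macrophage ones, and edgeR called neither. The monocyte and macrophage share gave an adjusted p of 0.616 by the same exact permutation test. Within that list Ly6c2 fell from 1.47 to 0.343 CPM, Ccr2 from 3.74 to 1.505 and Itgam from 81.8 to 61.1, and Mertk rose from 11.5 to 22.2. The summed neutrophil markers fell from between 0.00408% and 0.00797% to between 0.00194% and 0.00312% of counts, with 7 of 10 markers in every library. Mmp8 gave 50.7% of the neutrophil marker counts. The dendritic cell markers fell from between 0.00441% and 0.00725% to between 0.00252% and 0.00316%, with 7 of 10 in every library and 88.3% of their counts from Itgax. Both had an exact permutation adjusted p of 0.00974. B cell markers (adjusted p = 0.0130) and T and NK cell markers (adjusted p = 0.0487) were also lower by this exact permutation test, at no more than 0.000597% of counts in any library, with Nkg7 at 0 in RANKL+Dex. Of the B cell markers 3 of 7 were in every library, and 54.7% of their counts came from Ighm. Of the T and NK cell markers 1 of 5 was in every library, and 87.1% of their counts came from Cd4. In edgeR neither Ighm nor Cd4 was called, while Cd22 of the B cell list was called lower. Mast cell and basophil, erythroid and megakaryocyte, and stromal and endothelial markers gave adjusted p of 0.616, 0.701 and 0.153 by the exact permutation test, with Cma1 and Hbb-bs at 0 in RANKL and Ms4a2 and Prss34 at 0 in RANKL+Dex. The part of all these markers in the falls of Lilrb4a, Cd300a and the other CD300 genes was not tested.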

How the data were processed

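Poly(A) RNA from 12 cultures was sequenced. The authors deposited whole-number read counts per gene, not normalised, per the file headers. The submitters' processing notes name the GRCm39 build and, with no roles, DESeq 1.28.0, StringTie 1.3.3b, HISAT2 2.1.0 and FastQC 0.11.5. The counting program, its use of strand and the annotation are not stated there, so reads of overlapping or near-identical genes are uncertain.

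Counts were fitted with edgeR 4.0.16 (R 4.3.3; quasi-likelihood, TMM, filterByExpr with minimum count 10 and total 15, two-sided), with Benjamini-Hochberg adjustment over 13775 genes and a threshold of 0.05. SE came from the F statistic. The fit was tested on simulated data with no batch effect. The planted changes were larger than that of any member, so that test does not cover the calls of the members. Alternatives were batch as a block, other size factors, DESeq2 1.42.0, limma-voom (limma 3.58.1), other filters and leaving out each library or batch. Apart from the block itself, these fits left batch out of the model, so the blocked fit had no leave-out runs. Summing Lilrb4a with Lilr4b was chosen after seeing the data. Ratios added 0.5 to each count. A gene named by the rule below and the ratio that uses it are not reported here.

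The labels give both groups batch numbers 1 to 6, which pair the libraries. Same-numbered deviations from the group means correlated at 0.165 on average, against −0.0329 for different numbers, and 3 of 6 batches were over 0.1. The series describes 6 biological replicates per group, but its extraction protocol mentions triplicates. No label ties the cultures to separate mice, so a p-value covers only the spread among the cultures.

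Members, lists and tests were chosen with earlier results of these data known. Named genes were the 8 members, up to 4 per list (the 2 higher and 2 lower with the smallest p, passed or not), passed genes of the receptor families, the genes of the ratios and the 2 most alike genes per receptor. Exon lengths were unions of GENCODE M21 exons. List genes missing from the table were not analysed here.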

Additional observations from a re-analysis of the deposited data

Results flagged for a closer look

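A library far from the other 5 of its group was looked for in 142 groups of 6, and in 7 the gap to the nearest library, over the group's range, was above Dixon's 95% critical value. Chance alone gives about 1 in 20 such groups. Batch 2 with dexamethasone was flagged for 2 members, at 152 CPM of Ptpn11 (nearest library 148.5) and 179 CPM of Lyn (nearest 165). In Lyn the flagged library lies away from the controls, in Ptpn11 toward them. The log2 ratio of Cd300lf to Cd300ld in batch 6 with dexamethasone was −4.11, where the nearest was −3.14. Cd22 in batch 1 with dexamethasone measured 0.530 CPM (nearest 0.947), and Ptprj in the RANKL library of batch 3 measured 401 CPM (nearest 381). The B cell marker share in batch 4 with dexamethasone was 0.000430% (nearest 0.000333%), and the stromal and endothelial share in the RANKL library of batch 5 was 0.00100% (nearest 0.00163%).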

How the results depend on the processing

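Lilrb4a, Cd300a, Cd300lf, Cd33, Ptpn11 and Lyn kept their direction in every alternative run. The Lilrb4a call was lost without RANKL replicate 6, without batch 2 (−0.37), without batch 4 (−0.37) and summed with Lilr4b (−0.28), with −0.43 to −0.29 over single libraries left out. The Cd300a call was lost without batch 1 (−0.33), 3 (−0.37), 4 (−0.37) or 6 (−0.43), with −0.51 to −0.33 over single libraries. Lyn passed with the batch block (0.11, edgeR adjusted p = 0.0219), DESeq2 size factors (0.12) and the DESeq2 Wald test (0.12), and without RANKL replicate 1 or RANKL+Dex replicate 1 or 5, with 0.088 to 0.13 over single libraries. Ptpn6 changed sign without batch 6 (0.0010) and ranged from −0.041 to 0.0078 over single libraries. Inpp5d changed sign without batch 2 (0.0069) or 6 (0.015) and ranged from −0.026 to 0.0069 over single libraries. The Inpp5d to Inppl1 ratio ranged from 0.096 to 0.14 over all single libraries left out, and missed the threshold for 7 of the 12. The erythroid and megakaryocyte markers share changed sign without RANKL replicate 5 (−5.11e-05 percentage points) or RANKL+Dex replicate 2 (−5.14e-05), and was up to 0.000451 over single libraries. Changed genes numbered 1339 without batch 4, 1409 without batch 6, 3000 with the batch block and 1626 to 2493 over single libraries. Of 999 alternatives for 40 other named genes, 91 lost and 9 gained a call, and none reversed. Calls were lost in 13 of 25 alternatives for Pik3ca, in 12 for Pik3cd and Ptpn12, and in 10 for Cd72 and Gcnt1. They were lost in fewer for Sirpb1c, Map3k1, Cd300lg and Ptpra. The cause was not tested. Low counts limit Cd300lf.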
